A study of Homo sapiens with 24 samples.

Results

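The genes described here make, carry, sense and remove retinoic acid: ALDH1A3, CRABP2, RARA, RARB, RARG, RXRA, CYP26A1, CYP26B1, DHRS3 and STRA6. They were picked by symbol, and all 10 were found among the 57167 distinct symbols (58735 entries) of the deposited count files. ALDH1A3 and CRABP2 were put at the centre because their counts stood out in HCC1395. Their values in that line, and every difference between lines that uses it, are therefore given as a description with no test. The other 8 genes were added for their place in the pathway.

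Polyadenylated RNA was sequenced from 24 libraries of HCC1395, HCC38 and HCC1937, established human lines of triple-negative breast cancer. HCC1395 cells received 5 uM tazemetostat plus 5 uM ipatasertib (EZH2i+AKTi), 5 uM tazemetostat alone (EZH2i), 5 uM ipatasertib alone (AKTi) or the solvent DMSO. HCC38 and HCC1937 cells received EZH2i+AKTi or DMSO. Tazemetostat inhibits EZH2, the methyltransferase that marks histone H3 at silenced genes, and ipatasertib inhibits the AKT kinases, which act downstream of PI3K. Each of the 8 groups held 3 libraries. The labels describe a timeline only for a different line and an ATAC-seq experiment, and how long these cells were treated is therefore not known here. Each line is a single model of the disease, and nothing states that replicates were separate cultures, so p-values measure the spread between these libraries, which may be technical.

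Retinol enters cells through STRA6, is oxidised to retinal and then to retinoic acid, the last step by aldehyde dehydrogenases such as ALDH1A3. DHRS3 runs the earlier step backwards, from retinal to retinol. CRABP2 carries retinoic acid to the nucleus, where the receptors RARA, RARB and RARG, paired with a retinoid X receptor such as RXRA, bind response elements in DNA and turn genes on. CYP26A1 and CYP26B1 destroy retinoic acid. ALDH1A3 is known in the breast as an enzyme of luminal progenitor cells and as a main source of the ALDH activity used to sort breast cancer stem-like cells.

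Library totals ran from 33469927 to 51815656 counts. Levels are given in counts-per-million (CPM), scaled by TMM over all 24 libraries. Of 7 epithelial markers, HCC1395 had little EPCAM (0.825 to 5.62 CPM), CDH1 (0.0258 to 1.02 CPM) and KRT19 (0.239 to 2.08 CPM), but 315 to 594 CPM of the basal keratin KRT14, which stood at no more than 0.299 CPM in HCC38 and 11.2 CPM in HCC1937. KRT8, KRT18 and KRT5 ranged over 2.39 to 134 CPM in HCC1395. HCC38 and HCC1937 had at least 193 CPM of EPCAM and 202 CPM of CDH1. Of 5 fibroblast markers, HCC1395 had 723 to 895 CPM of COL1A2 and 44.2 to 94.1 CPM of COL1A1, while DCN, LUM and PDGFRB stayed at or under 0.652 CPM. Of the receptor genes listed as low in triple-negative lines, PGR stayed at or under 0.0978 CPM. ESR1 had 12.6 to 21.4 CPM in HCC1937, 1.82 to 3.11 CPM in HCC38 and at most 0.215 CPM in HCC1395. ERBB2 had 179 to 240 CPM in HCC1937, 111 to 162 CPM in HCC38 and 43.7 to 67.1 CPM in HCC1395. Immune markers summed to at most 1.55 CPM in any library. Endothelial markers (PECAM1, VWF and CDH5) summed to 63.7 to 68.6 CPM under EZH2i+AKTi and 35.0 to 38.1 CPM in DMSO in HCC1937, where CDH5 averaged 32.9 CPM under EZH2i+AKTi and 14.6 CPM in DMSO, and to at most 4.31 CPM in the other lines. The summed level of the 7 epithelial markers in HCC1395, most of it KRT14, was 664 to 777 CPM under EZH2i+AKTi, 672 to 713 CPM under EZH2i and 459 to 493 CPM under AKTi, against 493 to 513 CPM in DMSO. Its members did not move together there. Under AKTi KRT8 averaged 95.9 CPM and KRT18 49.4 CPM, against 32.5 and 29.1 CPM in DMSO, while KRT14 averaged 327 CPM under AKTi and 431 CPM in DMSO. The sum was 2626 to 3189 CPM under EZH2i+AKTi and 3316 to 3633 CPM in DMSO in HCC38, and 5056 to 5727 CPM under EZH2i+AKTi and 6052 to 6538 CPM in DMSO in HCC1937. In both lines only KRT18 of the 7 averaged higher under EZH2i+AKTi (1801 CPM, against 1681 in DMSO, in HCC1937). In HCC1937 CDH1 averaged 303 CPM under EZH2i+AKTi and 693 CPM in DMSO, and EPCAM 205 and 335 CPM. The mitochondrial share of counts in HCC1395 was 6.20% ± 0.09 under EZH2i+AKTi, 4.74% ± 0.39 under EZH2i and 5.55% ± 0.19 under AKTi, against 3.85% ± 0.08 in DMSO (SD, n = 3). It also moved with treatment in HCC1937, at 7.45% ± 0.96 under EZH2i+AKTi and 5.77% ± 0.84 in DMSO. Among the HCC38 libraries under EZH2i+AKTi the share was 7.77% in replicate C and 4.76% and 5.19% in replicates A and B, against 5.56% ± 0.41 in DMSO. The part of these shares and sums in the results was not tested. In bulk RNA fewer expressing cells and less RNA per cell cannot be told apart.

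Promoter windows from RefSeq (GRCh38.p14, 250 bases before to 50 after an annotated start) were found for all 10 genes, 23 windows in all. They were searched on both strands for the retinoic acid response element DR5, a direct repeat with a spacer of 5 bases, in which each unit is a purine, G, G or T, then TCA. DR5 stood in 2 of the 23 windows, in RARB and in CYP26A1, and in 31 of 35116 windows genome-wide (0.0883%). In RARB it lay 53 to 37 bases before the start, on the gene's strand, and in CYP26A1 90 to 74 bases before it, on the opposite strand. The element with a spacer of 2 bases (DR2, 0.0399% of all windows) and the forkhead core TGTTTAC (3.42% of all windows) matched none of the 23. A match describes letters only, and the absence of a match says nothing about binding. The windows below are those of RARB and CYP26A1, which carry DR5 (in capitals) and whose counts moved in opposite directions, and those of ALDH1A3 and CRABP2, the genes at the centre of this account, which carry no match. The windows shown are chr3:25428013-25428312 (plus strand), chr10:93073643-93073942 (plus), chr15:100879581-100879880 (plus) and chr1:156705735-156706034 (minus).
RARB: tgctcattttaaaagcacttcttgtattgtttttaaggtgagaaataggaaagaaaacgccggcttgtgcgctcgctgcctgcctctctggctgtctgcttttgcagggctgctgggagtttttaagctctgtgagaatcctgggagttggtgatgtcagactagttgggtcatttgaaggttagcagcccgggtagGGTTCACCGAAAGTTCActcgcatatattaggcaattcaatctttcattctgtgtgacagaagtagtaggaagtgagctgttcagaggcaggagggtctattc
CYP26A1: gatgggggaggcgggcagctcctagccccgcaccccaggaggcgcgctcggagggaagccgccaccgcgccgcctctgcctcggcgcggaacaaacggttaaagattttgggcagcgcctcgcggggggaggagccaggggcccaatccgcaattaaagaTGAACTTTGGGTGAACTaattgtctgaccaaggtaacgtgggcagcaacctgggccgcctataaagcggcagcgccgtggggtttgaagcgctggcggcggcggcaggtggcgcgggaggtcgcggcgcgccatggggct
ALDH1A3: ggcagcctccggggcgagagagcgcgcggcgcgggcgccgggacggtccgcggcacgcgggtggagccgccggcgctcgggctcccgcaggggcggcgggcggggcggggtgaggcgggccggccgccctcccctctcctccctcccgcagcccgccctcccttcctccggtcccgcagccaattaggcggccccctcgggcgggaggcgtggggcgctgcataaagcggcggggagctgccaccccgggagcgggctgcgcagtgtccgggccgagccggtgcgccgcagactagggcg
CRABP2: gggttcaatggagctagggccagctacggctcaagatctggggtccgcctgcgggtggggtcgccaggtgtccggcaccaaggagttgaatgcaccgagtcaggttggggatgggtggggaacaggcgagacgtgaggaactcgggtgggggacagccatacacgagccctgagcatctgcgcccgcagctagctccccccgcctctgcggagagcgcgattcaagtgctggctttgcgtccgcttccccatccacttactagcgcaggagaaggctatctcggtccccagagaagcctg

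The ALDH1A3 window was rich in G and C (81.7%, with 46 CpG pairs), against a median of 58.7% and 14 CpG pairs over all windows. That of CRABP2 stood at 64.0% with 20 pairs, the one shown for CYP26A1 at 67.7% with 32 and the one shown for RARB at 46.7% with 7. Another RARB window, with no DR5, stood at 76.3% with 33.

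ALDH1A3 (ENSG00000184254.16, chr15:100877714-100916626, plus strand, GRCh38) encodes the retinal dehydrogenase that makes retinoic acid. In HCC1395 it stood at 261, 236 and 263 CPM under EZH2i+AKTi, at 96.2, 97.3 and 99.4 CPM under EZH2i and at 162, 148 and 169 CPM under AKTi, against 42.5, 44.7 and 41.8 CPM in DMSO. Each inhibitor group lay wholly above DMSO, and the 4 groups did not overlap each other. The log2 change against DMSO was 2.55 ± 0.06 (SE of the fit) under EZH2i+AKTi, 1.19 ± 0.06 under EZH2i and 1.88 ± 0.06 under AKTi. Adding AKTi to EZH2i moved ALDH1A3 by 1.36 ± 0.06, and adding EZH2i to AKTi moved it by 0.67 ± 0.05. The change under both inhibitors was smaller than the sum of the changes under each, by -0.52 ± 0.08 on the log2 scale, and by -0.39 without replicate B of EZH2i+AKTi.

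The same gene moved in opposite directions in the other lines. In HCC38 it fell to 211, 207 and 208 CPM under EZH2i+AKTi, against 282, 268 and 278 CPM in DMSO, a log2 change of -0.43 ± 0.08 (adjusted p = 0.00305). In HCC1937 it rose to 661, 698 and 681 CPM under EZH2i+AKTi, against 381, 363 and 349.6 CPM in DMSO, a log2 change of 0.90 ± 0.06 (adjusted p = 3.46e-09). The groups did not overlap in either line. The response was larger in HCC1937 than in HCC38 by 1.30 ± 0.08 (adjusted p = 1.13e-12, where 32% of genes were called). Ordered by mean, HCC1937 under EZH2i+AKTi came first at 680.2 CPM, then HCC1937 in DMSO at 365, HCC38 in DMSO at 276, HCC1395 under EZH2i+AKTi at 253, HCC38 under EZH2i+AKTi at 209, and HCC1395 under AKTi at 159, under EZH2i at 97.6 and in DMSO at 43.0 CPM. No neighbours in that order overlapped. HCC1395 under both inhibitors thus held an ALDH1A3 level between those of HCC38 with and without them. An antisense gene on the opposite strand, AC015712.2, held 0.893% as many counts as ALDH1A3 over the 24 libraries. In HCC1395 it had 156, 92 and 105 counts under EZH2i+AKTi, against 6, 16 and 4 in DMSO. Like ALDH1A3, AC015712.2 is given no test in that line. It did not pass in HCC1937 (0.19 ± 0.35, adjusted p = 0.669) or in HCC38 (-0.36 ± 0.14, adjusted p = 0.0713). The strand setting of the counts is not given in the sources used here, so reads from such pairs cannot be told apart.

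**Figure D1:**
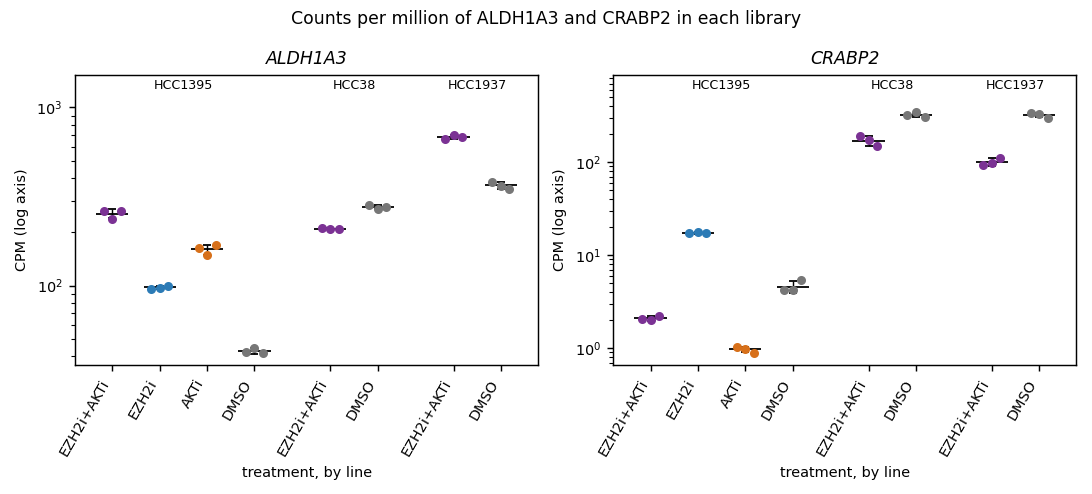
CPM values (log axis) of ALDH1A3 and CRABP2 in each of the 24 libraries, by line and treatment. Points are libraries A, B and C, lines are means and bars are SD of 3 libraries. ALDH1A3 is higher under every inhibitor in HCC1395, while CRABP2 is highest there under EZH2i (17.4 CPM) and lowest under AKTi (0.970 CPM).

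STRA6 (chr15:74179466-74212267, minus strand), the membrane receptor for retinol bound to its plasma carrier, was a gene of HCC38 and HCC1937 rather than of HCC1395. In HCC1395 it had 2.001, 1.899 and 1.767 CPM under EZH2i+AKTi, 2.00, 2.67 and 2.56 CPM under EZH2i and 0.464, 0.531 and 0.408 CPM under AKTi, against 0.780, 1.34 and 0.723 CPM in DMSO. The EZH2i and EZH2i+AKTi libraries all lay above DMSO and the AKTi libraries all below it. The log2 change was 0.995 ± 0.227 under EZH2i+AKTi (adjusted p = 7.51e-04), 1.36 ± 0.22 under EZH2i (adjusted p = 6.82e-05) and -1.01 ± 0.28 under AKTi (adjusted p = 0.00456). The last call was lost without replicate B of DMSO (-0.69, adjusted p = 0.0531). In HCC1937 STRA6 rose to 200.1, 205 and 221 CPM under EZH2i+AKTi, against 109.8, 109 and 109 CPM in DMSO (0.93 ± 0.06, adjusted p = 2.67e-09). In HCC38 the groups overlapped, at 158, 148 and 139.8 CPM under EZH2i+AKTi and 149.8, 156 and 154 CPM in DMSO (-0.08 ± 0.09, adjusted p = 0.542). CCDC33 lies on the opposite strand across STRA6 and also rose in HCC1937, to 32.5 to 37.1 CPM under EZH2i+AKTi, against 9.34 to 11.9 CPM in DMSO (1.72 ± 0.09, adjusted p = 6.64e-10). Reads shared between the pair were not tested.

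DHRS3 (chr1:12567910-12617731, minus strand), the retinal reductase, followed ALDH1A3 in HCC1395. It had 429, 477 and 377 CPM under EZH2i+AKTi, 219, 213 and 213 CPM under EZH2i and 291, 284.5 and 283 CPM under AKTi, against 118.5, 113 and 117 CPM in DMSO. The 4 groups did not overlap. The log2 change was 1.87 ± 0.06 under EZH2i+AKTi (adjusted p = 1.62e-15), 0.89 ± 0.06 under EZH2i (adjusted p = 5.52e-10) and 1.29 ± 0.06 under AKTi (adjusted p = 9.03e-13). DHRS3 also rose when AKTi was added to EZH2i (0.98 ± 0.06, adjusted p = 4.10e-11) and when EZH2i was added to AKTi (0.58 ± 0.06, adjusted p = 2.79e-07). The shortfall from the sum of the 2 single changes, -0.32 ± 0.09, did not pass (adjusted p = 0.0738), though it did without replicate B or C of EZH2i+AKTi (adjusted p = 0.00336 and 0.0311) and with no low-count filter (adjusted p = 0.0193). In HCC1937 DHRS3 rose to 387, 390.2 and 438.5 CPM under EZH2i+AKTi, against 229, 232 and 222 CPM in DMSO (0.83 ± 0.06, adjusted p = 1.73e-08). In HCC38 it stood at 86.5, 85.2 and 78.6 CPM under EZH2i+AKTi, against 61.3, 70.2 and 63.0 CPM in DMSO (0.33 ± 0.10, adjusted p = 0.0262). That call was lost without replicate A or C of DMSO (adjusted p = 0.148 and 0.124) and without replicate B of EZH2i+AKTi (adjusted p = 0.0868). Leaving aside ALDH1A3 and CRABP2, which were not tested in HCC1395, DHRS3 alone passed upward in all 5 comparisons with DMSO.

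CRABP2 (ENSG00000143320.8, chr1:156699606-156705816, minus strand), the carrier that hands retinoic acid to its receptors, did not follow ALDH1A3. In HCC1395 it had 2.08, 2.00 and 2.25 CPM under EZH2i+AKTi, 17.3, 17.8 and 17.2 CPM under EZH2i and 1.03, 0.982 and 0.897 CPM under AKTi, against 4.20, 4.18 and 5.39 CPM in DMSO. EZH2i libraries lay above DMSO, AKTi and EZH2i+AKTi libraries below it, and no groups overlapped. The log2 change was -1.14 ± 0.12 under EZH2i+AKTi, 1.93 ± 0.10 under EZH2i and -2.24 ± 0.14 under AKTi. Adding AKTi to EZH2i moved CRABP2 by -3.07 ± 0.11, and adding EZH2i to AKTi moved it by 1.11 ± 0.16. The change under both less the sum of the single changes was -0.82 ± 0.19. These values rest on 33 to 194 counts per library in DMSO, AKTi and EZH2i+AKTi and on 589 to 845 under EZH2i.

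Under EZH2i+AKTi CRABP2 fell in the other lines. HCC38 had 190.0, 171 and 149 CPM under EZH2i+AKTi, against 322, 343 and 309 CPM in DMSO (-0.96 ± 0.11, adjusted p = 1.35e-04). HCC1937 had 93.2, 98.8 and 111 CPM under EZH2i+AKTi, against 339, 326 and 301 CPM in DMSO (-1.67 ± 0.07, adjusted p = 4.85e-11). The groups did not overlap in either line, and the fall was deeper in HCC1937 than in HCC38 by -0.74 ± 0.11 (adjusted p = 9.23e-06). In DMSO the mean was 322 CPM in HCC1937 and 324 CPM in HCC38, a log2 difference of -0.01 with a 95% interval from -0.17 to 0.15 (adjusted p = 0.919), while HCC1395 held 4.59 CPM. By mean level HCC38 and HCC1937 in DMSO came first and overlapped. After them, with no overlap between neighbours, came HCC38 and then HCC1937 under EZH2i+AKTi, HCC1395 under EZH2i, in DMSO, under EZH2i+AKTi and under AKTi.

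RARB (chr3:25174332-25597932, plus strand), a receptor that retinoic acid itself is known to induce through the DR5 element shown above, rose in HCC38 and HCC1937, where its DMSO libraries held 20 counts or fewer. In HCC38 it had 2.42, 2.79 and 4.32 CPM under EZH2i+AKTi, against 0.342, 0.598 and 0.564 CPM in DMSO (2.62 ± 0.30, adjusted p = 1.42e-04). Without replicate C of EZH2i+AKTi, the highest, the change was 2.38 ± 0.26 (adjusted p = 3.17e-07). In HCC1937 it had 4.58, 3.67 and 3.79 CPM under EZH2i+AKTi, against 0.120, 0.110 and 0.187 CPM in DMSO, 27.9-fold in the fit (log2 4.80 ± 0.25). The DMSO libraries of HCC1937 held 5, 5 and 9 counts, and those of EZH2i+AKTi 169, 149 and 174. The former were all under the low-count filter's minimum of 10. RARB thus passed that filter in HCC1937 only through EZH2i+AKTi, where it was high, and no p is given. In HCC1395 it had 11, 6 and 9 counts under EZH2i+AKTi, 13, 6 and 12 under EZH2i and 9, 8 and 11 under AKTi, against 3, 8 and 0 in DMSO. The HCC1395 DMSO libraries were also all under the minimum of 10, and RARB passed the filter there only through libraries of the inhibitor groups. No p is given for HCC1395 either, and these counts are too low to tell a change from none.

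TOP2B overlaps RARB on the opposite strand and held 164234 counts over the 24 libraries, against 1038 of RARB. TOP2B stood at 108 to 122 CPM under EZH2i+AKTi and 109.8 to 123 CPM in DMSO in HCC1937 (-0.05 ± 0.07, adjusted p = 0.534), where RARB rose. In HCC38 TOP2B had 133 to 191 CPM under EZH2i+AKTi and 115 to 130.2 CPM in DMSO (0.29 ± 0.13, adjusted p = 0.119). TOP2B was at 190.5 CPM or above in every HCC1395 library, where RARB reached at most 0.382 CPM.

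RARA (chr17:40309192-40357643, plus strand), the most widely expressed of the 3 receptors, fell under EZH2i+AKTi in HCC38 to 56.55, 49.35 and 44.6 CPM, against 91.7, 95.1 and 90.6 CPM in DMSO (-0.91 ± 0.11, adjusted p = 1.93e-04). In HCC1937 it fell to 39.4, 41.8 and 42.9 CPM, against 61.8, 58.15 and 56.4 CPM in DMSO (-0.51 ± 0.06, adjusted p = 7.12e-06). In HCC1395 it had 43.1, 44.0 and 41.8 CPM under EZH2i+AKTi, 45.1, 43.45 and 47.8 CPM under EZH2i and 50.5, 49.3 and 46.6 CPM under AKTi, against 44.8, 46.9 and 49.98 CPM in DMSO. The change under EZH2i+AKTi was small (-0.14 ± 0.06, adjusted p = 0.0408) and was lost under 7 of the alternatives tried (adjusted p up to 0.184). EZH2i (adjusted p = 0.557) and AKTi (adjusted p = 0.588) alone did not pass. The antisense gene RARA-AS1 held 1.97% as many counts as RARA.

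RARG (chr12:53210567-53232980, minus strand), the receptor best known from skin, fell in HCC38 to 56.0, 48.5 and 43.1 CPM under EZH2i+AKTi, against 69.6, 67.3 and 67.3 CPM in DMSO (-0.50 ± 0.11, adjusted p = 0.00739). That call was lost without replicate B of EZH2i+AKTi (adjusted p = 0.0571). In HCC1395 it rose to 69.8, 67.9 and 67.7 CPM under EZH2i+AKTi, against 56.25, 62.3 and 61.1 CPM in DMSO (0.19 ± 0.05, adjusted p = 0.00458). EZH2i (65.0, 65.1 and 64.5 CPM, adjusted p = 0.0864) and AKTi (66.5, 62.5 and 62.2 CPM, adjusted p = 0.199) did not pass. In HCC1937 the groups overlapped, at 119, 128 and 139.0 CPM under EZH2i+AKTi and 123, 112 and 108 CPM in DMSO, and a change of 0.17 ± 0.07 (adjusted p = 0.0447) was lost under 8 of the alternatives (adjusted p up to 0.314).

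RXRA (chr9:134317098-134440585, plus strand), the shared partner of the receptors, passed in none of the 5 comparisons of edgeR (0 of 5 also by DESeq2, and 0 at an unadjusted p under 0.05). It had 153, 151 and 156 CPM under EZH2i+AKTi, 156, 159 and 159 CPM under EZH2i and 161, 151.5 and 154 CPM under AKTi, against 141, 157 and 155 CPM in DMSO in HCC1395. HCC1937 had 135, 146 and 155 CPM under EZH2i+AKTi and 156, 134 and 123 CPM in DMSO. HCC38 had 62.8, 53.2 and 45.9 CPM under EZH2i+AKTi and 56.35, 57.2 and 53.7 CPM in DMSO. In HCC1937 it was called without replicate A of DMSO (0.17, adjusted p = 0.0356).

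**Figure D2:**
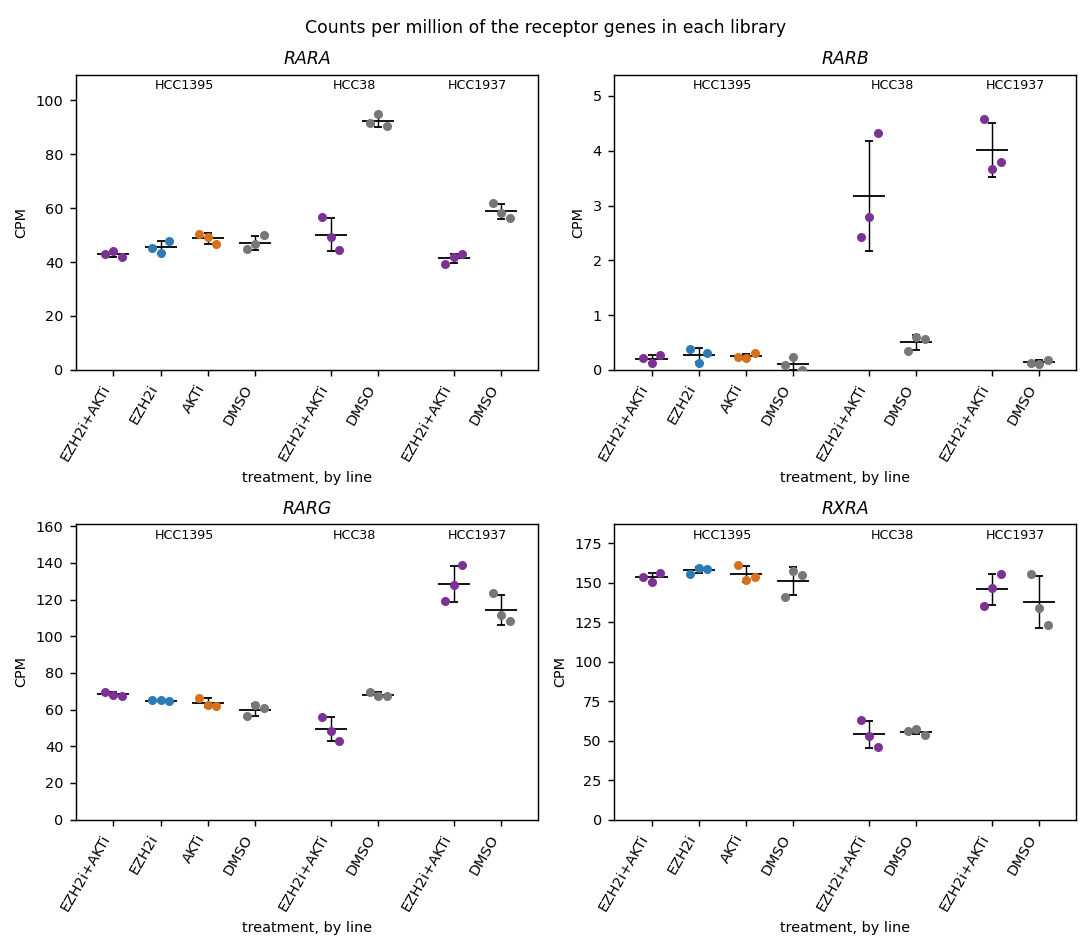
CPM values (linear axis) of the receptor genes RARA, RARB, RARG and RXRA in each library, with means and SD of 3 libraries. RARB is near 0 in every HCC1395 library and averages 3.18 and 4.02 CPM under EZH2i+AKTi in HCC38 and HCC1937. RXRA is lower in every HCC38 library than in any library of HCC1395 or HCC1937, which overlap.

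CYP26B1 (chr2:72129238-72148038, minus strand), an enzyme that clears retinoic acid, followed EZH2i in HCC1395. It had 22.0, 18.6 and 21.3 CPM under EZH2i+AKTi, 24.3, 26.2 and 26.3 CPM under EZH2i and 7.07, 7.22 and 5.54 CPM under AKTi, against 6.05, 6.63 and 7.81 CPM in DMSO. The groups with EZH2i lay wholly above the others, and AKTi overlapped DMSO. The log2 change was 1.58 ± 0.10 under EZH2i+AKTi (adjusted p = 4.56e-11), 1.91 ± 0.10 under EZH2i (adjusted p = 1.33e-11) and -0.05 ± 0.11 under AKTi (adjusted p = 0.736). Adding AKTi to EZH2i lowered it by -0.33 ± 0.09 (adjusted p = 0.00583) and adding EZH2i to AKTi raised it by 1.64 ± 0.10 (adjusted p = 1.98e-10). In HCC1937 it rose to 17.2, 17.9 and 19.1 CPM under EZH2i+AKTi, against 14.45, 13.3 and 13.7 CPM in DMSO (0.39 ± 0.08, adjusted p = 6.27e-04). In HCC38 it had 5.65, 5.74 and 6.06 CPM under EZH2i+AKTi, against 4.19, 3.92 and 3.95 CPM in DMSO (0.50 ± 0.13, adjusted p = 0.0132). The HCC38 groups did not overlap, yet the call was lost without any single DMSO library (adjusted p from 0.0504 to 0.0642).

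CYP26A1 (chr10:93073475-93077890, plus strand), the other clearing enzyme and a gene that retinoic acid is known to induce strongly, moved against RARB in the lines that expressed both. In HCC38 it fell to 8.88, 8.31 and 7.55 CPM under EZH2i+AKTi, against 13.2, 10.65 and 12.01 CPM in DMSO (-0.57 ± 0.13, adjusted p = 0.00695). In HCC1937 it fell to 1.55, 1.085 and 1.20 CPM, against 2.24, 2.31 and 2.48 CPM in DMSO (-0.88 ± 0.18, adjusted p = 7.02e-04). Neither pair of groups overlapped. In HCC1395 it failed the low-count filter, with 12, 5 and 2 counts under EZH2i+AKTi, 1, 1 and 2 under EZH2i and 0, 1 and 1 under AKTi, against 1, 0 and 0 in DMSO, and no fold is given. Each of these 2 genes had a promoter window with DR5 and others without, and the counts of the 2 genes moved apart in both lines.

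**Figure D3:**
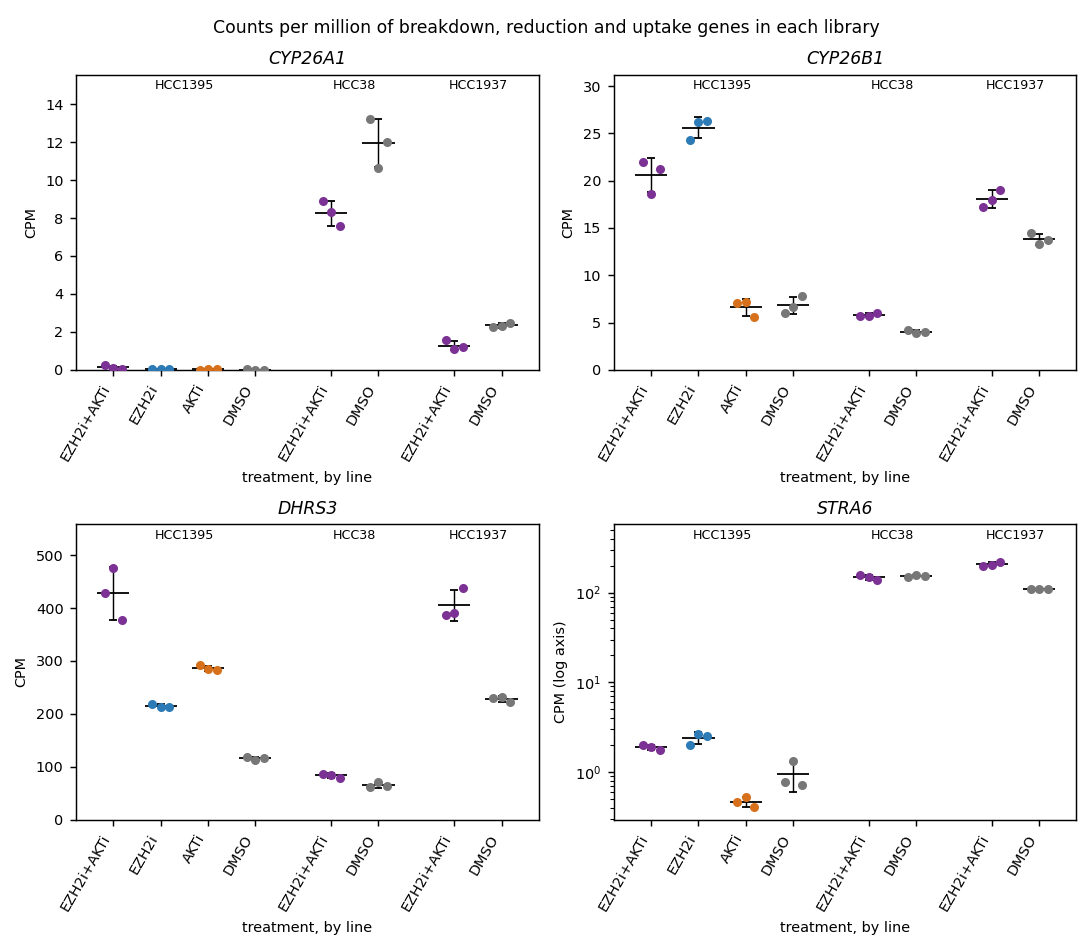
CPM values of CYP26A1, CYP26B1 and DHRS3 (linear axes) and STRA6 (log axis) in each library, with means and SD of 3 libraries. CYP26B1 averages 25.6 CPM under EZH2i and 20.6 CPM under EZH2i+AKTi in HCC1395, against 6.61 CPM under AKTi and 6.83 CPM in DMSO.

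Counted together, the members that could be tested were called as follows, beside the share of all genes called. Under EZH2i in HCC1395 3 of 7 were higher and 0 lower (18.8% and 14.9% of all genes; 0 lower also by DESeq2 and at an unadjusted p under 0.05). Under AKTi 1 was higher and 1 lower of 7 (27.1% and 22.6%). Under EZH2i+AKTi 4 were higher and 1 lower of 7 (32.5% and 27.4%). In HCC38 3 were higher and 5 lower of 10 (16.8% and 14.5%), and in HCC1937 6 were higher and 3 lower of 10 (30.5% and 28.8%). The 6 include RARB, which passed the low-count filter in HCC1937 only through its EZH2i+AKTi libraries, so its call there is no support. In HCC1395 RARB is among those not called, and it passed the filter only through libraries of the inhibitor groups. All 8 HCC38 calls held without replicate C of EZH2i+AKTi. Adding AKTi to EZH2i called 2 of 7 (49% of all genes), and adding EZH2i to AKTi called 4 of 7 (35.5%). For the departure from the sum of the single changes 0 of 7 were called by edgeR (1.58% of all genes), 1 at an unadjusted p under 0.05 and 0 by DESeq2. The 3 inhibitor groups of HCC1395 share their DMSO libraries, so their changes are not independent.

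**Figure D4:**
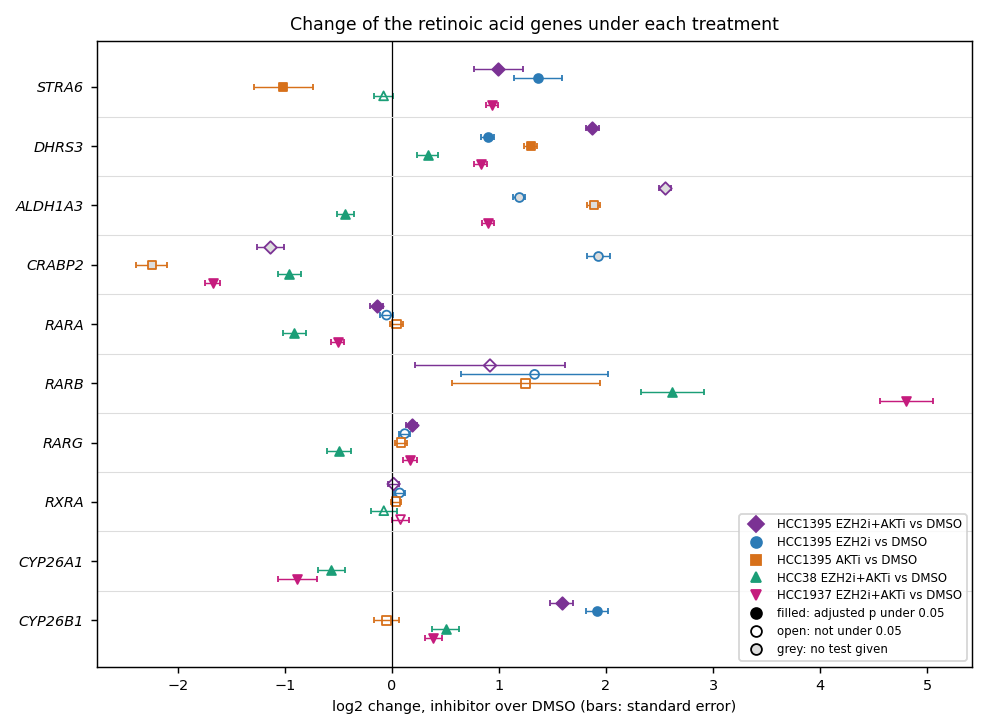
Log2 change against DMSO of each retinoic acid gene under each treatment, with bars of 1 standard error. Filled marks passed an adjusted p of 0.05, open marks did not, and grey marks have no test because those values chose the gene. RARB is drawn filled for HCC1937 and open for HCC1395. In both lines it passed the low-count filter only through inhibitor-treated libraries, so its marks there stand for no test. CYP26A1 has no mark for HCC1395, where it failed the low-count filter.

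Per kilobase of exon (union of annotated exons), the order of the members differed between lines. In HCC1395 in DMSO DHRS3 led at 38.3 CPM per kb, followed by RXRA at 13.6, RARG at 11.7, RARA at 9.98, ALDH1A3 at 7.45 and CRABP2 at 4.17, with CYP26B1 at 1.36, STRA6 at 0.123, RARB at 0.0278 and CYP26A1 at 0.00302 CPM per kb. Under EZH2i+AKTi ALDH1A3 stood at 43.9 CPM per kb, behind DHRS3 at 141. In DMSO CRABP2 led in HCC38 at 295 and in HCC1937 at 293 CPM per kb, with ALDH1A3 at 47.8 and 63.2. Under EZH2i+AKTi in HCC1937 ALDH1A3 reached 118 CPM per kb, between DHRS3 at 133 and CRABP2 at 91.8.

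Over the 24 libraries, with each line's mean taken off the log2 CPM, the protein-coding genes most like ALDH1A3 among 12097 searched were HOXC13 (Pearson r = 0.966), PPL (0.959), ZNF395 (0.954) and SMAD6 (0.949). Over HCC38 and HCC1937 alone these values were 0.945 for HOXC13, 0.733 for PPL, 0.778 for ZNF395 and 0.952 for SMAD6. Among the members DHRS3 came closest, at 0.933, though the change of DHRS3 in HCC38 was upward and that of ALDH1A3 downward. The genes most like CRABP2 were GSR (0.986), GOLM1 (0.967), ADCY3 (0.956) and EGLN3 (0.953). Over HCC38 and HCC1937 alone their values were 0.955, 0.973, 0.825 and 0.965. The values over all libraries include HCC1395, where the counts chose ALDH1A3 and CRABP2. The libraries share lines, treatments and depth, and such values describe these 24 libraries with no p. Without centring, ALDH1A3 and SMAD6 had r = -0.18 and CRABP2 and GSR had r = -0.45.

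The other genes of retinoid handling were counted by role. Of 31 listed, 25 passed the filter in HCC1395, where 14 were higher and 6 lower under EZH2i+AKTi (32.5% and 27.4% of all genes), 7 higher and 3 lower under EZH2i (18.8% and 14.9%), and 10 higher and 5 lower under AKTi (27.1% and 22.6%). In HCC38 9 were higher and 3 lower of 23 (16.8% and 14.5% of all genes), and in HCC1937 11 were higher and 9 lower of 26 (30.5% and 28.8%). These counts include SDR16C5 and DHRS9 in HCC1395 and CYP26C1 in HCC38, which passed the filter only through groups where they were higher. Such calls are no support for a change of those genes. The median log2 change of those tested was 0.36 under EZH2i+AKTi in HCC1395, 0.30 in HCC38 and 0.10 in HCC1937, against 0.07, -0.01 and 0.03 over all genes tested. HOXB1 and CDX1, retinoid-responsive in the embryo, had 0 counts in every library.

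RDH10, which oxidises retinol to retinal ahead of ALDH1A3, passed upward in all 5 comparisons. In HCC1395 it had 97.9, 99.1 and 98.0 CPM under EZH2i+AKTi, 53.0, 57.7 and 54.4 CPM under EZH2i and 24.3, 25.5 and 26.1 CPM under AKTi, against 16.7, 17.5 and 17.2 CPM in DMSO. Its log2 change was 2.51 ± 0.06 under EZH2i+AKTi (adjusted p = 6.01e-18), 1.69 ± 0.06 under EZH2i (adjusted p = 1.43e-14) and 0.55 ± 0.06 under AKTi (adjusted p = 8.50e-08). It rose by 1.09 ± 0.10 in HCC38 (adjusted p = 3.13e-05) and by 1.02 ± 0.06 in HCC1937 (adjusted p = 1.37e-09).

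RBP4, the plasma carrier of retinol that docks at STRA6, rose in HCC1395 under EZH2i+AKTi (2.23 ± 0.21, adjusted p = 1.05e-08), under EZH2i (1.76 ± 0.22, adjusted p = 1.98e-06), under AKTi (0.75 ± 0.24, adjusted p = 0.0125) and in HCC38 (1.33 ± 0.27, adjusted p = 0.00464), at levels of at most 3.53 CPM. In HCC1937 it averaged 0.502 CPM under EZH2i+AKTi and 0.498 CPM in DMSO (0.01 ± 0.31, adjusted p = 0.974). LRAT, which stores retinol as an ester, fell in HCC1937 to 6.97, 7.54 and 7.11 CPM under EZH2i+AKTi, against 17.5, 19.5 and 20.2 CPM in DMSO (-1.41 ± 0.09, adjusted p = 4.96e-09). In HCC38 it had 4.94, 7.63 and 8.66 CPM under EZH2i+AKTi, against 5.22, 4.79 and 5.22 CPM in DMSO, and did not pass (0.45 ± 0.19, adjusted p = 0.101). In HCC1395 LRAT fell under EZH2i+AKTi (-0.26 ± 0.06, adjusted p = 3.66e-04) and under EZH2i (-0.61 ± 0.06, adjusted p = 3.66e-08) and rose under AKTi (0.47 ± 0.06, adjusted p = 4.09e-07). SDR16C5, a retinol dehydrogenase, had 44, 54 and 16 counts under EZH2i+AKTi, 9, 7 and 5 under EZH2i and 7, 3 and 9 under AKTi in HCC1395, against 0, 2 and 2 in DMSO. Only its EZH2i+AKTi libraries, where it was highest, reached the low-count filter's minimum of 10 counts. It is counted as higher in all 3, but neither p nor fold is given.

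ALDH1A1, a sister enzyme of ALDH1A3, and DHRS9, another retinol dehydrogenase, went the other way at low levels. ALDH1A1 had 1.33, 1.29 and 1.20 CPM under EZH2i+AKTi and 0.851, 0.902 and 1.20 CPM under AKTi in HCC1395, against 2.93, 2.16 and 1.445 CPM in DMSO. Its change under AKTi was -1.16 ± 0.24 (adjusted p = 3.67e-04), and under EZH2i+AKTi it fell in HCC1395 (-0.78 ± 0.22, adjusted p = 0.00517), HCC38 (-0.99 ± 0.19, adjusted p = 0.00380) and HCC1937 (-1.49 ± 0.24, adjusted p = 6.63e-05). EZH2i alone (2.11, 2.67 and 2.78 CPM) did not pass (adjusted p = 0.464). DHRS9 had 8, 7 and 5 counts under EZH2i+AKTi, 24, 28 and 9 under EZH2i and 6, 5 and 1 under AKTi in HCC1395, against 24, 18 and 37 in DMSO. Its EZH2i+AKTi and AKTi libraries were all under the low-count filter's minimum of 10, so it passed there only through groups where it was higher. It is counted as lower in both, but neither p nor fold is given. In HCC1937 DHRS9 fell by 1.79 ± 0.24 (adjusted p = 1.24e-05).

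TGM2, a transglutaminase known as a retinoid-responsive gene, split by line. It fell in HCC1395 to 4.87, 4.68 and 5.33 CPM under EZH2i+AKTi, 10.3, 9.39 and 9.60 CPM under EZH2i and 10.2, 9.845 and 10.8 CPM under AKTi, against 14.2, 16.3 and 15.6 CPM in DMSO, a log2 change of -1.65 ± 0.09 under EZH2i+AKTi (adjusted p = 2.39e-12). It rose in HCC38 to 951, 798 and 753 CPM under EZH2i+AKTi, against 274, 266.5 and 276 CPM in DMSO (1.58 ± 0.11, adjusted p = 6.31e-06), and in HCC1937 by 0.47 ± 0.06 (adjusted p = 3.37e-06). CYP26C1, the remaining clearing enzyme, had 25, 27 and 12 counts under EZH2i+AKTi in HCC38, against 6, 4 and 6 in DMSO, and 0 counts in HCC1937. In HCC38 only its EZH2i+AKTi libraries reached the low-count filter's minimum of 10. It is counted there as higher, but neither p nor fold is given.

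Where a role had no called gene, its values were as follows. Under EZH2i in HCC1395 the receptors RXRB (0.05, adjusted p = 0.607) and PPARD (-0.09, adjusted p = 0.220) and the carrier FABP5 (0.17, adjusted p = 0.0827) did not pass. In HCC38 RXRB (0.30, adjusted p = 0.112) and PPARD (0.14, adjusted p = 0.375) did not pass.

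**Figure D5:**
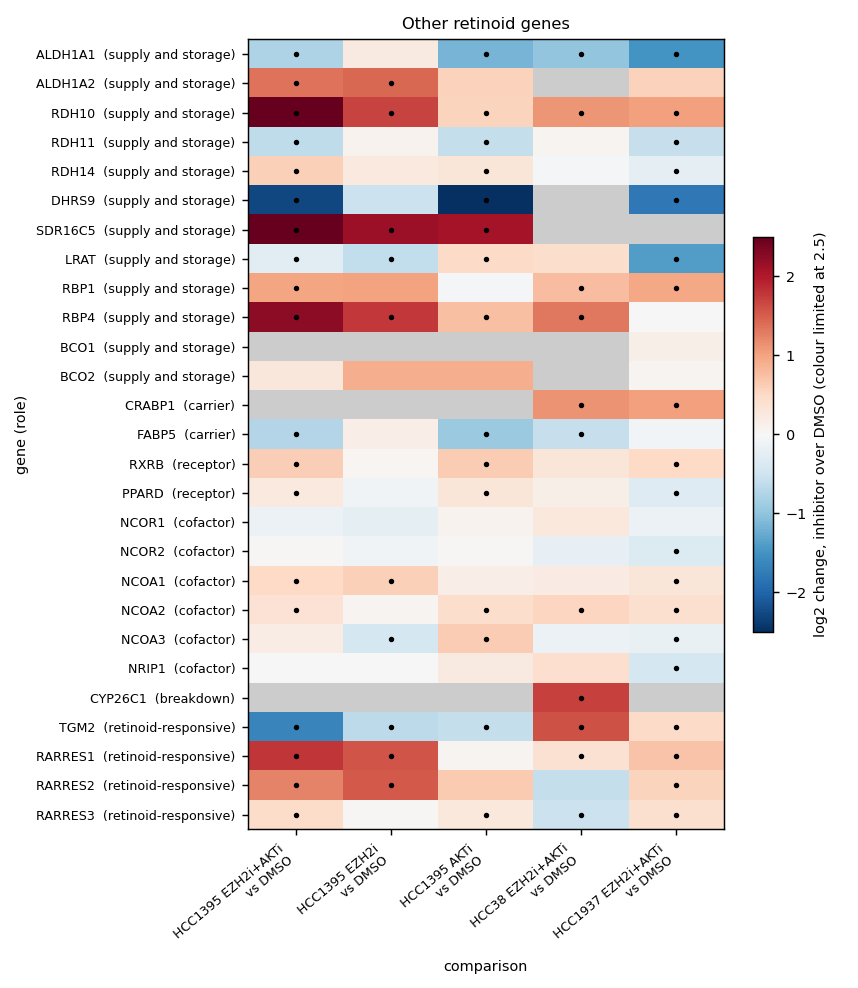
Log2 change against DMSO of other retinoid genes that passed the low-count filter in at least 1 fit, by comparison (columns) and gene with its role (rows). Red is higher under the inhibitor and blue lower, the colour is limited at 2.5, dots mark an adjusted p under 0.05 and grey cells failed the filter. Dots of SDR16C5 and DHRS9 in HCC1395 and of CYP26C1 in HCC38 are no support, because those genes passed the filter only through groups where they were higher. RDH10 is higher in all 5 columns, and TGM2 is lower in the 3 HCC1395 columns and higher in the others.

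Between untreated lines, most genes of any kind differed, so the members' calls stand beside 74.7% of all genes for HCC38 against HCC1395, 73% for HCC1937 against HCC1395 and 71.9% for HCC1937 against HCC38. CYP26A1, which failed the low-count filter in HCC1395, has no test between that line and another. All 7 tested members differed between HCC38 and HCC1395 (4 higher and 3 lower in HCC38), 5 of 7 between HCC1937 and HCC1395 (all higher), and 9 of 10 between HCC1937 and HCC38 (5 higher and 4 lower). RARB, called in both comparisons with HCC38, had at most 20 counts in any DMSO library. STRA6 showed the widest gap that rests on more than a few counts. It stood at 149.8 to 156 CPM in HCC38 and 109 to 109.8 CPM in HCC1937, against 0.723 to 1.34 CPM in HCC1395, log2 7.34 ± 0.12 and 6.85 ± 0.12 (adjusted p = 2.59e-28 and 6.25e-28). CYP26A1 had 356 to 463 counts in HCC38 and 93 to 119 in HCC1937, against 0 or 1 in HCC1395. RXRA went the other way in HCC38, at 53.7 to 57.2 CPM in HCC38 against 141 to 157 CPM in HCC1395 (-1.44 ± 0.09, adjusted p = 3.95e-15).

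The response to EZH2i+AKTi itself was compared between lines. In HCC38 against HCC1395 0 of 7 tested were more positive and 5 more negative by edgeR (33% of all genes called), with 1 more positive at an unadjusted p under 0.05 and 1 by DESeq2 (RARB). In HCC1937 against HCC1395 1 was more positive and 3 more negative of 7 (23.3%), and in HCC1937 against HCC38 6 were more positive and 1 more negative of 10 (32%). The more positive members of both include RARB, whose HCC1937 DMSO libraries held only 5 to 9 counts. Its HCC1395 DMSO libraries held 3, 8 and 0 counts. The calls of RARB between lines are therefore no support, that by DESeq2 included. DHRS3 rose less in HCC38 (-1.52 ± 0.10, adjusted p = 1.93e-12) and in HCC1937 (-1.05 ± 0.10, adjusted p = 2.25e-09) than in HCC1395. For STRA6 the response in HCC1937 less that in HCC1395 was -0.07, with a 95% interval from -0.43 to 0.28 (adjusted p = 0.841).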

How the data were processed

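Polyadenylated RNA of 24 libraries (8 groups of 3) was analysed from raw counts per gene, 1 deposited table per library, which the authors made from reads processed with fastp and HISAT2 2.0.5 against hg38, per the submitters' processing notes. For the counter, its annotation and whether strand was used, the setting was not given in the sources used here. The deposited normalised tables were not used.

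Genes passing filterByExpr (minimum count 10) were scaled by TMM and tested with the quasi-likelihood test of edgeR 4.0.16 in R 4.3.3, within each line (HCC1395 with 18074 genes, HCC38 with 17100, HCC1937 with 17692) and over all libraries for differences between lines (20697 genes). Adjusted p-values are Benjamini-Hochberg over all genes of the fit, with a threshold of 0.05. Standard errors are the log2 change over the root of F. The fits were tested on simulated data with known changes. Alternatives were RLE scaling, no filter, a stricter filter, DESeq2 1.42.0, a replicate block and leaving out each library.

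The members and the gene lists were chosen with earlier results of these data known. Other retinoid genes (31 listed) were counted in full. 1 of them is counted but not reported singly here. Those named are the 3 with the largest change among called genes per treatment, and genes of roles with no call. Likeness used Pearson's r over protein-coding genes of at least 2 CPM on average. Positions and exon lengths are from GENCODE 29, promoter windows from RefSeq. Same-letter replicates did not deviate together (0 of 24 pairs over 0.1), so letters were not taken as pairs. No 2 libraries of a group agreed within sampling noise (lowest chi-square per degree of freedom 2.56). Library totals ran from 33469927 to 51815656 counts, and a gene at 0 counts may hold up to 3.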

Additional observations from a re-analysis of the deposited data

Results flagged for a closer look

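Responses to EZH2i+AKTi against DMSO that differed between lines by the test of the difference itself are listed here as log2 values, the line named first less the other. No explanation was tested.

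For ALDH1A3 the response in HCC1937 exceeded that in HCC38 by 1.30 ± 0.08, the gene rising in HCC1937 and falling in HCC38. For CRABP2 the HCC1937 response was lower than that of HCC38 by -0.74 ± 0.11. RARA responded less positively in HCC38 than in HCC1395 (-0.75 ± 0.10), in HCC1937 than in HCC1395 (-0.37 ± 0.10), and more positively in HCC1937 than in HCC38 (0.37 ± 0.10). RARG stood at -0.66 ± 0.11 for HCC38 less HCC1395 and at 0.64 ± 0.11 for HCC1937 less HCC38.

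RARB gave 3.89 ± 0.87 for HCC1937 less HCC1395 and 2.15 ± 0.54 for HCC1937 less HCC38, but these 2 values are not taken as tested differences. Both rest on HCC1937 DMSO libraries of 5 to 9 counts, under the low-count filter's minimum of 10. The first also rests on HCC1395 libraries of 0 to 13 counts, and without replicate B of HCC1395 DMSO it was 2.64 and lost its call.

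CYP26B1 gave -1.06 ± 0.15 for HCC38 less HCC1395 and -1.20 ± 0.14 for HCC1937 less HCC1395. DHRS3 gave -1.52 ± 0.10 for HCC38 less HCC1395, -1.05 ± 0.10 for HCC1937 less HCC1395 and 0.47 ± 0.10 for HCC1937 less HCC38. STRA6 gave -1.06 ± 0.18 for HCC38 less HCC1395 and 0.98 ± 0.11 for HCC1937 less HCC38.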

How the results depend on the processing

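Of 110 tested results on the retinoic acid genes, 93 kept their side of the threshold under every alternative run, 9 lost a call and 8 gained one under at least 1, and 0 reversed. Of 24 values without a test, 9 moved by more than the spread between replicates. The count of all genes departing from the sum of the single changes in HCC1395 was 286, against 477 by DESeq2, and ran from 127 to 1022 when 1 library was left out (lowest without replicate B of EZH2i, highest without replicate C of EZH2i+AKTi). The count called in HCC38 was 5362 and ran from 3114 to 6715 on leaving out a library. With the replicate block, RARA under EZH2i+AKTi in HCC1395 (adjusted p = 0.0543) and RARG in HCC1937 (adjusted p = 0.128) lost their calls. The difference of RARG between HCC38 and HCC1395 in DMSO (0.19 ± 0.08, adjusted p = 0.0311) was lost under 6 alternatives. RLE scaling moved the median of all genes by at most 0.04. In HCC1395 RARB had at most 13 counts per library and CYP26A1 at most 12. The cause of these changes was not tested.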
